A study of Homo sapiens with 18 samples.

Results

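The axon guidance ligands and receptors measured here were the protein-coding genes whose symbols name semaphorins of classes 3 to 7 (SEMA), plexins (PLXN), neuropilins (NRP), collapsin response mediator proteins (DPYSL2 to DPYSL5), ephrins (EFN), EPH receptors, SLITs and ROBOs, netrins (NTN1 to NTN5), UNC5 receptors and DCC. Members were picked by a pattern over gene symbols. It gave 73 of the 58870 genes in the count table: 20 semaphorins, 11 plexins and neuropilins, 4 DPYSL genes, 8 ephrins, 14 EPH receptors, 7 SLIT and ROBO genes, and 9 netrins, UNC5 receptors and DCC. RNA sequencing was done on WM164, SKMel28 and A375 cells, which are established human melanoma lines, with either Myc-DDK-tagged MAFG or GFP overexpressed. MAFG is a small MAF transcription factor that acts as a dimer with other basic leucine zipper proteins. Each line was measured with MAFG and with the GFP control, in 3 libraries per group, which made 18 libraries in 6 groups. By the study's methods, both transgenes sat in the same lentiviral vector with an EF1α promoter and blasticidin resistance, so that the GFP cells carried the vector as well. Expression was constitutive and each group is a culture of 1 line. The labels do not say whether the 3 libraries of a group came from separate cultures, so p-values measure only the spread between these libraries.

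The families named above steer growing axons and migrating neural crest cells, from which melanocytes descend. Secreted class 3 semaphorins bind neuropilins, which pair with plexins to pass the signal on, whereas membrane-bound semaphorins mostly bind plexins directly, and DPYSL proteins act inside the cell on microtubules. Ephrins are tethered to the membrane and activate EPH receptor tyrosine kinases on neighbouring cells, SLIT proteins bind ROBO receptors and repel, and netrins attract through DCC or repel through UNC5 receptors.

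Levels are given as CPM, a gene's count per 1000000 counts, with library sizes scaled by TMM factors. Levels are compared between genes only as TPM, which corrects for transcript length. MAFG was compared with GFP within each line with edgeR's quasi-likelihood test, and p-values were adjusted by the Benjamini-Hochberg method across the genes tested. Every adjusted p below comes from that test unless another tool is named. A gene with an adjusted p of 0.05 or less was counted as changed (it rose or fell), and as called if its log2 fold change also exceeded 1 in size, the thresholds used by the study. Because RNA came from whole cultures, fewer cells with a transcript and less of it per cell cannot be told apart.

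Library sizes ranged from 20122172 to 39025042 counts. MAFG itself was at 23.0 to 28.8 CPM in WM164 cells with GFP and at 47.8 to 56.0 CPM with MAFG, at 20.1 to 26.2 and 35.8 to 38.9 CPM in SKMel28 cells, and at 23.7 to 32.7 and 37.8 to 56.3 CPM in A375 cells. The groups did not overlap in any line, with log2 fold changes of 1.04 (adjusted p = 6.37e-08), 0.64 (adjusted p = 1.28e-04) and 0.80 (adjusted p = 0.0655), the last of which passed with DESeq2 (adjusted p = 7.80e-04). On log2(TPM + 1), limma gave MAFG log2 fold changes of 2.71, 1.86 and 2.33. Summed over 8 melanocytic markers, the level was 3106 to 3530 CPM in WM164 cells with GFP and 1111 to 1242 CPM with MAFG, where 6 of the 6 markers tested fell. It was 3800 to 4040 and 3030 to 3221 CPM in SKMel28 cells, where 5 of 8 fell and 1 rose. In A375 cells the same markers summed to 28.0 to 30.7 CPM with GFP and 21.3 to 32.9 CPM with MAFG. There 2 of 8 were tested, 4 of 8 were at 3 counts or less over the GFP libraries together, and MITF made up most of the sum. The share of mitochondrial counts moved with the groups, from 27.1% to 27.4% with GFP to 23.1% to 25.9% with MAFG in WM164 cells and from 23.7% to 25.4% to 27.3% to 29.1% in SKMel28 cells. For other cell types, with 6 markers each, endothelial markers summed to 3.82 CPM or less and fibroblast markers to 26.6 CPM or less in every library. Neuron markers summed to 10.9 to 12.6 CPM with GFP and 12.2 to 12.5 CPM with MAFG in WM164 cells. In SKMel28 cells they summed to 1.10 to 2.51 CPM with GFP and 0.200 to 0.466 CPM with MAFG, while fibroblast markers went from between 11.3 and 12.9 to between 18.3 and 21.3 CPM. Blood cell markers, of which 4 or 5 of 6 were at 3 counts or less with GFP, went from between 122.6 and 137.7 to between 51.7 and 58.2 CPM in WM164 and from between 313.6 and 392.1 to between 226.7 and 232.2 CPM in SKMel28 cells. Keratinocyte markers summed to 9.68 to 14.5 CPM with GFP and 7.76 to 8.47 CPM with MAFG in WM164 cells, to 23.5 to 27.0 and 28.6 to 29.8 CPM in SKMel28 cells, and to 55.3 to 69.6 and 62.3 to 65.3 CPM in A375 cells. Single genes made up most of these sums: LUM for fibroblast markers in SKMel28 cells, CD68 for blood cell markers and KRT10 for keratinocyte markers. The part of these marker and mitochondrial shifts in the results below was not tested.

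EPHA3, an EPH receptor tyrosine kinase bound by ephrin-A ligands, was higher with MAFG in all 3 lines, although its level in GFP cells differed widely between them. In WM164 cells it was at 336, 397 and 366 CPM with GFP and at 644, 639 and 592 CPM with MAFG. In SKMel28 cells the libraries held 7.33, 8.02 and 6.97 CPM with GFP and 20.2, 19.2 and 24.1 CPM with MAFG. In A375 cells they held 0.834, 1.195 and 1.09 CPM with GFP and 7.45, 7.47 and 6.16 CPM with MAFG. Every MAFG library lay above every GFP library of its line. The log2 fold change was 0.77 (SE 0.0615, adjusted p = 2.12e-08) for WM164, 1.52 (SE 0.12, adjusted p = 1.51e-07) for SKMel28 and 2.75 (SE 0.2396, adjusted p = 0.000245) for A375 cells. The rise was larger in A375 than in WM164 cells, with a log2 difference of -1.98 (SE 0.174, adjusted p = 8.62e-08) for WM164 minus A375. It was also larger in A375 than in SKMel28 cells, with -1.24 (SE 0.187, adjusted p = 0.000139) for SKMel28 minus A375. On log2(TPM + 1), where low levels count for less, all 3 differences between lines turned in sign, and in A375 cells the change was 0.74 (adjusted p = 0.173 with limma and no filter on low values).

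EPHA3 is gene ENSG00000044524.11, chromosome 3 from 89107621 to 89482134, plus strand of GRCh38 in GENCODE release 44, with no annotated exon of another gene over its own. The bases before its start site are shown because it is the member that rose in all 3 lines. They are the 250 bases of its RefSeq promoter before the start (GRCh38.p14, chr3:89107371-89107620, plus strand), all in lower case because none of the 4 motifs searched lies in them:
EPHA3: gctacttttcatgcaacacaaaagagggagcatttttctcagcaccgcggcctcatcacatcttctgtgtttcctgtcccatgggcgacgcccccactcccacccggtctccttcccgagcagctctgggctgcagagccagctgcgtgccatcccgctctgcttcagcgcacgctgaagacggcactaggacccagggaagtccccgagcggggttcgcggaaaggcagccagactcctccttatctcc
G and C made up 61.2% of these bases, with 15 CG pairs.

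RefSeq promoters of 300 bases (250 before and 50 after a start site) were given for 62 of the 73 members, 96 promoters in all, and were searched on both strands for 4 motifs. TGACNNNGC, the element of small MAF proteins paired with CNC partners, lay in 11.5% of the members' promoters and in 13.3% of all 35116 promoters. The E-box CACGTG lay in 4.17% and 7.26%, the M-box TCATGTG, an extended E-box of MITF targets, in 3.12% and 2.92%, and the AP-1 site TGACTCA in 0 of 96 and in 4.95% of all. Among members called in at least 1 line, matches began before a start site of PLXNA4, SEMA3B, SLIT2 and SEMA4D. Each is shown with its neighbouring bases because these are the called members with a match (motif in capitals, read along the gene, GRCh38.p14). The 3 first hold TGACNNNGC on the opposite strand, beginning 2, 118 and 60 bases before the start. The PLXNA4 match runs past the start site, and most of it lies after that site. SEMA4D holds CACGTG beginning 50 bases before the start:
PLXNA4 (chr7:132576454-132576483, minus strand): aggctccatctGCAGTGTCAatgcggcgct
SEMA3B (chr3:50267523-50267552, plus strand): cccggctgcctGCCCGGTCAcccgatccgc
SLIT2 (chr4:20251834-20251863, plus strand): ggcctcgagggGCGGGGTCAgggggcggag
SEMA4D (chr9:89495688-89495717, minus strand): atgaaacttgcCACGTGaaaatatagaaat
The start site of the PLXNA4 promoter lies inside the gene as GENCODE draws it. A match describes these letters only, and RefSeq promoters of SEMA6B, DPYSL2, UNC5B, NTN3, EPHA10, NRP1, EFNB3, NTN1, SEMA6A, SEMA3A and UNC5D were not used here.

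NRP1, PLXNA4, SEMA3A and DPYSL2 were among the members called higher in WM164 cells with MAFG, and ROBO2, EPHA5 and PLXNC1 were called lower. Of the 73 members, 56 passed the filter on low counts and were tested and 17 were not. Of the tested, 4 (EPHB1, NTN4, UNC5C and SEMA3F) reached the filter's level in all 3 libraries of the MAFG group but not of the GFP group, and 3 of them (EPHB1, NTN4 and UNC5C) are among the called. Of the tested, 16 were called against 6.94% of all tested genes, with 13 higher against 4.94% and 3 lower against 2%. A change at any size was found for 38 against 31.8% of all tested genes, with 24 higher against 16.2% and 14 lower against 15.6%. The median log2 fold change was 0.26 over the tested members and 0.00 over all tested genes, and the median size of the change was 0.61 and 0.23. Libraries of the MAFG and GFP groups did not overlap for 69.6% of the tested members and for 43.4% of all tested genes. With limma, 5 of 39 members tested were called on log2(TPM + 1), against 3.11% of all genes, and 7 on log2(TPM + 0.1), against 5%.

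In SKMel28 cells, EPHA2, EPHA3, EPHB3, PLXND1, SEMA3B and NTN4 were called higher with MAFG, and PLXNA3, EPHB2, PLXNA2, DPYSL5, PLXNB1 and SEMA6B lower. Of the 73 members 50 were tested and 23 were not. EPHB3 and NTN4 reached the filter's level in all 3 libraries of the MAFG group alone and EPHB2 and PLXNA3 in those of the GFP group alone, and all 4 are among the called. The 12 called compared with 4.74% of all tested genes, the 6 higher with 1.76% and the 6 lower with 2.98%. Counting changes of any size, 32 members passed against 29.9% of all tested genes, 12 higher against 14.6% and 20 lower against 15.3%. The median log2 fold change of the tested members was -0.24, that of all tested genes -0.01, and the median sizes were 0.59 and 0.23. Groups did not overlap for 72% of the tested members and 43% of all tested genes. With limma, 1 of 34 members tested was called on log2(TPM + 1), against 1.8% of all genes, and 3 on log2(TPM + 0.1), against 3.27%.

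In A375 cells, EPHA3 was the 1 member of 55 tested that was called, against 0.665% of all tested genes (0.646% higher), and the 1 that changed, against 0.843% (0.78% higher), while 18 members were not tested. At an unadjusted p under 0.05, 11 tested members passed, against 6.26% of all tested genes, and DESeq2 with adjustment gave 2 changed members, against 1.32%. The median log2 fold change was 0.13 over the tested members and 0.00 over all tested genes, and groups did not overlap for 21.8% of the members and 12.3% of all tested genes. The median SE of the tested members was 0.21, against 0.11 in WM164 and 0.16 in SKMel28 cells. Changes of the same size were thus harder to detect in A375 cells. EPHA7, a receptor listed at 0 counts in every library of the other lines, was at 1.38, 3.07 and 2.06 CPM with GFP and at 4.22, 5.03 and 5.86 CPM with MAFG. Its groups did not overlap, with a log2 fold change of 1.21 (SE 0.308, adjusted p = 0.171), and it passed with DESeq2 (adjusted p = 0.0456), without a count filter (adjusted p = 0.00350) and without MAFG replicate 1 (adjusted p = 0.0419). Without MAFG replicate 1, 2 members were called and 4 changed in A375 cells. NRP1 (log2 fold change 0.51, adjusted p = 0.0267) and SEMA3A (0.47, adjusted p = 0.0265) were then among them. Shares of all genes without MAFG replicate 1 were not computed. With all 18 libraries in one model, 3 of 63 members were called, against 1.66% of all genes, and 8 changed, against 2.7%.

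**Figure D1:**
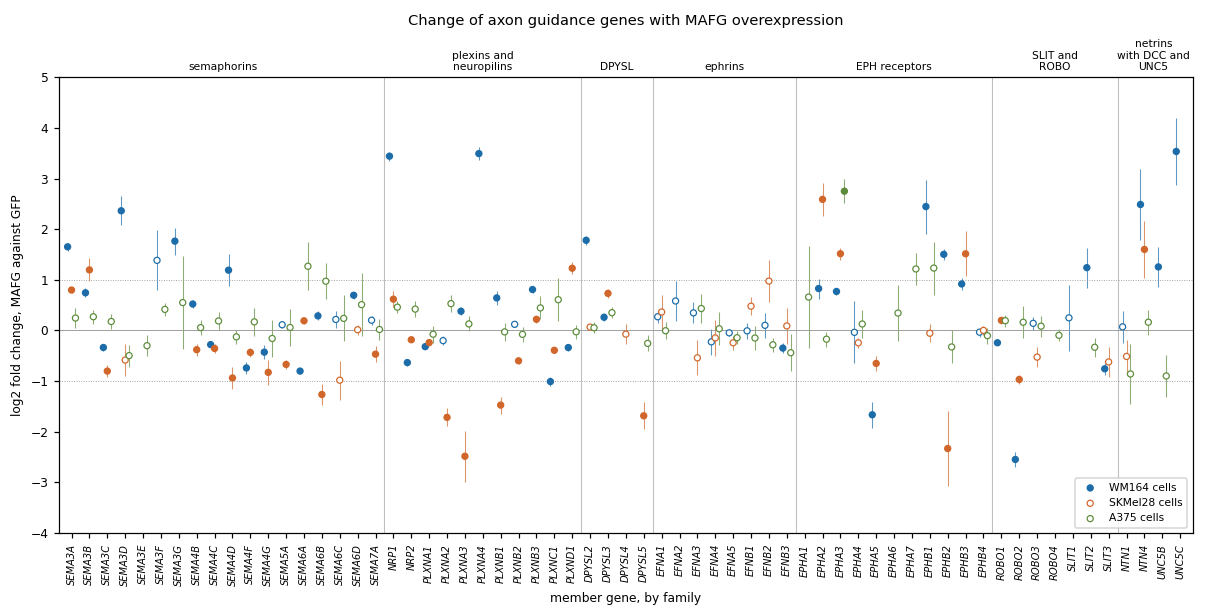
Log2 fold change of MAFG against GFP (vertical axis) for each member tested in at least 1 line (horizontal axis, by family), with bars of 1 standard error, in WM164 (blue), SKMel28 (orange) and A375 (green) cells. Filled points have an adjusted p of 0.05 or less and dotted lines mark a log2 fold change of 1 in either direction; EPHA3 is the member with a filled green point, and EFNB3 in WM164 cells is the filled point among the ephrins.

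Among the semaphorins, the ligands of neuropilins and plexins, 13 of 17 tested members changed in WM164 cells, 8 higher and 5 lower. For SKMel28 cells it was 12 of 15, 3 higher and 9 lower. Of all tested genes, 31.8% changed in WM164 cells (16.2% higher, 15.6% lower) and 29.9% in SKMel28 cells (14.6% higher, 15.3% lower). SEMA3A, a secreted ligand known for repelling axons through NRP1, was at 34.4, 43.5 and 34.5 CPM in WM164 cells with GFP and at 117, 116 and 120.1 CPM with MAFG. In SKMel28 cells it was at 29.8, 29.7 and 30.5 CPM with GFP and at 53.2, 51.2 and 52.1 CPM with MAFG. In both lines the groups were far apart, with log2 fold changes of 1.65 (SE 0.0789, adjusted p = 2.12e-11) and 0.80 (SE 0.0673, adjusted p = 3.26e-07). In A375 cells, where GFP libraries held 96.7, 90.5 and 75.9 CPM, the MAFG libraries held 71.8, 120.4 and 119 CPM. MAFG replicate 1 was the lowest and the other MAFG libraries the highest of the A375 libraries, so the groups overlapped.

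Other class 3 semaphorins followed different courses. SEMA3D was at 0.821, 0.597 and 1.38 CPM in WM164 cells with GFP and at 4.69, 5.28 and 4.32 CPM with MAFG, a log2 fold change of 2.36 (SE 0.286, adjusted p = 4.34e-06). SEMA3G was at 0.964, 0.962 and 1.15 and 3.71, 3.62 and 3.12 CPM, a log2 fold change of 1.76 (SE 0.266, adjusted p = 5.17e-05). Both rose without overlap of the groups, although the call of SEMA3G was lost with all 18 libraries in one model (adjusted p = 0.0542). In SKMel28 cells SEMA3D did not pass (log2 fold change -0.58, adjusted p = 0.199), and in A375 cells, where it was at 30.3, 24.4 and 24.6 CPM with GFP, its value was -0.50 (adjusted p = 0.765). SEMA3B rose in SKMel28 cells from 2.26, 1.92 and 1.66 to 4.84, 4.77 and 3.79 CPM, a log2 fold change of 1.20 (SE 0.227, adjusted p = 0.000845), and in WM164 cells by 0.74 (adjusted p = 4.81e-06), with no overlap in either line. SEMA3C fell in both, by 0.34 on the log2 scale in WM164 (adjusted p = 0.002003) and 0.80 in SKMel28 cells (adjusted p = 0.000142). SEMA3C, SEMA3E, SEMA3A and SEMA3D lie in that order within 4444519 bases of chromosome 7, all on the minus strand. SEMA3A and SEMA3D rose in WM164 cells and SEMA3C fell, and the part of their position was not tested.

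Of the membrane-bound semaphorins, SEMA4D, known as a ligand of PLXNB1, rose in WM164 cells from 0.856, 1.52 and 0.987 to 1.89, 2.92 and 2.93 CPM, a log2 fold change of 1.19 (SE 0.321, adjusted p = 0.008397). In SKMel28 cells it fell from 3.796, 4.48 and 4.62 to 2.602, 2.22 and 1.88 CPM, a log2 fold change of -0.94 (SE 0.223, adjusted p = 0.00439). The groups did not overlap in either line, with MAFG libraries on top in WM164 and at the bottom in SKMel28 cells. SEMA6B was opposite in the same way. Its log2 fold change was 0.29 in WM164 (adjusted p = 0.01799, and 0.0767 to 0.0836 without GFP replicate 3, MAFG replicate 1 or MAFG replicate 2) and -1.26 (SE 0.198, adjusted p = 0.000158) in SKMel28 cells. SEMA6A, the semaphorin of the highest TPM in WM164 and SKMel28 cells with GFP, was at 301, 290.4 and 279 CPM with GFP and 168, 160.1 and 172 CPM with MAFG in WM164 cells, where it fell by 0.80 on the log2 scale (adjusted p = 2.25e-09). In SKMel28 cells its change was 0.19 (adjusted p = 0.0158, and 0.0834 and 0.0751 without GFP replicate 1 and MAFG replicate 2). SEMA4C fell in both lines, by 0.28 (adjusted p = 0.00423) and 0.36 (adjusted p = 0.00608) on the log2 scale.

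NRP1, the co-receptor of SEMA3A and of VEGF, had one of the largest changes of any member, and it did so in WM164 cells. There it was at 4.42, 4.44 and 4.94 CPM with GFP and at 49, 49.8 and 51.1 CPM with MAFG, a 10.9-fold difference with a log2 fold change of 3.44 (SE 0.0914, adjusted p = 7.92e-15). In SKMel28 cells it was at 6.39, 5.41 and 6.76 CPM with GFP and at 10.9, 8.96 and 8.704 CPM with MAFG, a log2 fold change of 0.62 (SE 0.152, adjusted p = 0.005799). In A375 cells GFP libraries held 26.1, 23.7 and 21.6 CPM and MAFG libraries 31.7, 33.7 and 33.1 CPM, a log2 fold change of 0.46 (SE 0.118, adjusted p = 0.175). The groups did not overlap in any of the 3 lines. The change in WM164 cells exceeded that in SKMel28 cells by 2.83 (SE 0.165, adjusted p = 1.79e-10) and that in A375 cells by 2.98 (SE 0.155, adjusted p = 3.73e-11) on the log2 scale, and brought NRP1 in WM164 cells above the level in A375 cells. NRP1 is gene ENSG00000099250.18, chromosome 10 from 33177492 to 33336262, minus strand.

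NRP2, which prefers other class 3 semaphorins such as SEMA3C and SEMA3F, went the other way. It was at 153, 161 and 148 CPM in WM164 cells with GFP and at 94.2, 106 and 96.9 CPM with MAFG, and at 531, 542 and 509 and 451, 474 and 466 CPM in SKMel28 cells. MAFG libraries were below all GFP libraries in both, with log2 fold changes of -0.63 (SE 0.0603, adjusted p = 2.17e-07) and -0.18 (SE 0.0538, adjusted p = 0.0168). The small change in SKMel28 cells did not pass without GFP replicate 1 (adjusted p = 0.0597) or MAFG replicate 1 (adjusted p = 0.0862). In A375 cells, where NRP2 was at 10.3, 8.64 and 11.04 CPM with GFP, its log2 fold change was 0.42 (adjusted p = 0.5702, and 0.0196 with all 18 libraries in one model). By TPM, WM164 cells with GFP held NRP2 at 33.8 ± 4.85 and NRP1 at 0.943 ± 0.484 (SD, n = 3), and with MAFG at 26.7 ± 3.02 and 11.8 ± 1.36.

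All 11 plexins and neuropilins were tested in WM164 cells, where 9 changed, 5 higher and 4 lower. The 10 tested in SKMel28 cells all changed, 3 higher and 7 lower. Of all tested genes, 31.8% changed in WM164 cells (16.2% higher, 15.6% lower) and 29.9% in SKMel28 cells (14.6% higher, 15.3% lower). PLXNA4, a class A plexin that works with NRP1 as receptor of SEMA3A, was at 2.64, 2.32 and 3.396 CPM in WM164 cells with GFP and at 30.2, 31 and 32.3 CPM with MAFG. That is an 11.2-fold difference, with a log2 fold change of 3.49 (SE 0.123, adjusted p = 3.5e-13) and groups far apart. PLXNA4 was at 0.33 CPM or less in every library of the other lines and was not tested there. It is gene ENSG00000221866.9, chromosome 7 from 132123340 to 132648688, minus strand.

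PLXND1, PLXNB1 and PLXNA3 changed in opposite directions in WM164 and SKMel28 cells. PLXND1, the receptor of SEMA3E, was at 304, 284 and 257 CPM in WM164 cells with GFP and at 224, 228 and 216 CPM with MAFG, whereas in SKMel28 cells it was at 8.72, 11.5 and 11.97 and 26.9, 23.1 and 25.2 CPM. It fell in the former and rose in the latter without overlap, with log2 fold changes of -0.34 (SE 0.06104, adjusted p = 0.000338) and 1.23 (SE 0.1197, adjusted p = 1.51e-06). PLXNB1 rose in WM164 cells from 5.92, 8.06 and 7.07 to 11.7, 11.9 and 9.39 CPM and fell in SKMel28 cells from 9.16, 11.3 and 9.07 to 3.04, 3.84 and 3.71 CPM. Again no libraries overlapped, with log2 fold changes of 0.64 (SE 0.141, adjusted p = 0.00181) and -1.47 (SE 0.166, adjusted p = 6.76e-06). PLXNA3 rose in WM164 cells by 0.38 on the log2 scale (adjusted p = 0.000755). It fell in SKMel28 cells from 1.63, 1.13 and 1.42 to 0.4003, 0.143 and 0.188 CPM, a log2 fold change of -2.48 (SE 0.508, adjusted p = 0.00151). PLXNA3 passed the filter there through the GFP group alone.

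PLXNA2 was at 9.96, 9.001 and 9.14 CPM in SKMel28 cells with GFP and at 3.47, 2.62 and 2.44 CPM with MAFG, where it fell by 1.72 on the log2 scale (adjusted p = 2.52e-06). Its groups overlapped in WM164 cells (-0.20, adjusted p = 0.109). PLXNC1, the receptor of SEMA7A, fell in both lines, from 25.8, 31.4 and 28.5 to 14.8, 14.1 and 13.7 CPM in WM164 cells and from 193, 194 and 201 to 142, 156 and 149.8 CPM in SKMel28 cells. Its groups did not overlap in either, with log2 fold changes of -1.01 (SE 0.0926, adjusted p = 1.34e-07) and -0.39 (SE 0.0567, adjusted p = 7.74e-05). The first was called by a narrow margin and was below the fold threshold without GFP replicate 2 (-0.94) or MAFG replicate 3 (-0.99). PLXNB2 was the plexin of the highest TPM in SKMel28 and A375 cells with GFP. It fell in SKMel28 cells by 0.60 on the log2 scale (adjusted p = 1.09e-06). It did not pass in WM164 cells (0.12, adjusted p = 0.118, and 0.0418 without GFP replicate 1).

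**Figure D2:**
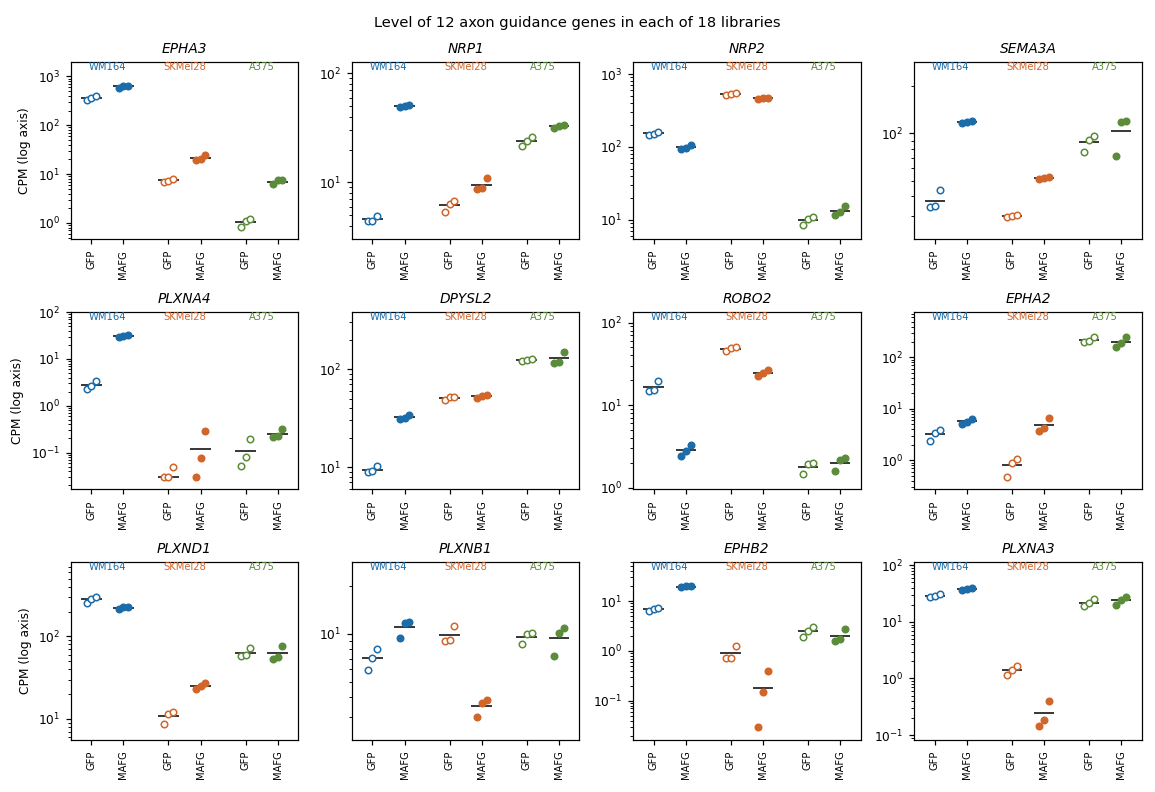
CPM on a log axis for 12 members in the 18 libraries, GFP as open and MAFG as filled points, with the group mean as a bar; values under 0.03 CPM, 0 included, are drawn at 0.03. EPHA3 and NRP1 are higher with MAFG in every line, PLXNA4 and DPYSL2 are higher in WM164 cells without overlap, and PLXND1, PLXNB1, EPHB2 and PLXNA3 move in opposite directions in WM164 and SKMel28 cells.

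DPYSL2, the collapsin response mediator that couples semaphorin 3A signals to microtubules, was at 10.2, 9.12 and 8.85 CPM in WM164 cells with GFP and at 31.9, 30.7 and 34.2 CPM with MAFG, with a log2 fold change of 1.78 (SE 0.0924, adjusted p = 6.69e-11). In SKMel28 cells the libraries held 51.7, 51.8 and 48.3 CPM with GFP and 55.04, 53.5 and 50.2 CPM with MAFG, and in A375 cells 124, 120.4 and 126 and 151, 116 and 119 CPM. The groups were separate in WM164 cells and overlapped in the others (log2 fold changes 0.07, adjusted p = 0.498, and 0.05, adjusted p = 0.997, both below 0 on the TPM scales). DPYSL5 fell in SKMel28 cells from 4.995, 5.31 and 5.49 to 1.94, 0.896 and 2.06 CPM, a log2 fold change of -1.69 (SE 0.269, adjusted p = 0.000193), without overlap. DPYSL3 rose by 0.73 on the log2 scale in SKMel28 cells (adjusted p = 2.3e-05) and by 0.26 in WM164 cells (adjusted p = 0.0185), where it did not pass without GFP replicate 2, MAFG replicate 2 or MAFG replicate 3 (adjusted p from 0.0706 to 0.109). CRMP1, a close relative of the DPYSL genes with another symbol, was in WM164 cells at 0.283 ± 0.0837 CPM with GFP and 10.1 ± 0.3699 CPM with MAFG (log2 fold change 5.11, adjusted p = 9.48e-12).

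Of the ephrins, the membrane-tethered ligands of the EPH receptors, 1 changed in any line. Over all tested genes, 31.8% (WM164), 29.9% (SKMel28) and 0.843% (A375) changed. EFNB3 fell in WM164 cells from 28.2, 31.5 and 25.3 to 24.9, 22.1 and 19.9 CPM, a log2 fold change of -0.35 (SE 0.0999, adjusted p = 0.0126) that did not pass without GFP replicate 2 (adjusted p = 0.0666) or MAFG replicate 3 (adjusted p = 0.0618). Of the 8 (WM164), 7 (SKMel28) and 7 (A375) ephrins tested, 2, 2 and 0 had an unadjusted p under 0.05. The shares of all tested genes were 40.8%, 39.5% and 6.26%. DESeq2 gave 1, 0 and 0 ephrins with an adjusted p of 0.05 or less, against 23.8%, 25.5% and 1.32% of all genes. EFNA5, the ephrin of the highest TPM in the WM164, SKMel28 and A375 GFP groups (16.3 ± 4.74, 4.74 ± 0.795 and 9.86 ± 2.94 TPM), was at 59.95, 67.8 and 60.7 CPM in WM164 cells with GFP and at 57.2, 64.8 and 60.6 CPM with MAFG. These values overlapped (log2 fold change -0.05, adjusted p = 0.666, above 0 on the TPM scales and without GFP replicate 2). EFNA1, a ligand of EPHA2, had log2 fold changes of 0.27, 0.36 and -0.01 in WM164, SKMel28 and A375 cells (adjusted p = 0.114, 0.451 and 0.997). EFNB2 in SKMel28 cells was at 0.766, 0.885 and 0.966 CPM with GFP and 1.701, 2.51 and 0.938 CPM with MAFG. The lowest MAFG library lay among the GFP libraries, with a log2 fold change of 0.98 (SE 0.412, adjusted p = 0.0876). Exons of a gene on the other strand cover 36.4% of the exon bases of EFNB2, and whether reads were counted by strand is not given in the sources used here.

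Of the EPH receptors, 8 of 14 were tested in WM164 cells and 6 changed, 5 higher and 1 lower. For SKMel28 cells 8 were tested and 5 changed, 3 higher and 2 lower. Of all tested genes, 31.8% changed in WM164 cells (16.2% higher, 15.6% lower) and 29.9% in SKMel28 cells (14.6% higher, 15.3% lower). EPHA2, a receptor widely expressed outside the nervous system, was at 1.07, 0.885 and 0.483 CPM in SKMel28 cells with GFP and at 6.71, 4.195 and 3.71 CPM with MAFG, a 6.01-fold difference with a log2 fold change of 2.59 (SE 0.323, adjusted p = 1.8e-05). In WM164 cells it was at 3.85, 2.39 and 3.396 CPM with GFP and 5.67, 6.28 and 5.16 CPM with MAFG, a log2 fold change of 0.83 (SE 0.197, adjusted p = 0.00344). Both rises were without overlap and from low levels compared with A375 cells, where EPHA2 was at 202, 212 and 254 CPM with GFP and 247, 188 and 162 CPM with MAFG and its groups overlapped (-0.17, adjusted p = 0.997). It is gene ENSG00000142627.13, chromosome 1 from 16124337 to 16156069, minus strand. EPHA5 fell in WM164 cells from 3.21, 3.71 and 3.91 to 0.944, 1.29 and 1.17 CPM, a log2 fold change of -1.66 (SE 0.262, adjusted p = 8.21e-05), and in SKMel28 cells by 0.65 (adjusted p = 0.00449, and 0.157 with all 18 libraries in one model).

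Among the receptors of ephrin-B ligands, EPHB2 was called in both lines in opposite directions. In WM164 cells it was at 7.101, 6.47 and 7.23 CPM with GFP and at 20.01, 19.1 and 19.9 CPM with MAFG, a log2 fold change of 1.503 (SE 0.103, adjusted p = 2.87e-09). In SKMel28 cells it was at 0.733, 0.738 and 1.28 CPM with GFP and at 0, 0.394 and 0.1501 CPM with MAFG, a log2 fold change of -2.33 (SE 0.747, adjusted p = 0.0269). No libraries overlapped in either line, but counts in SKMel28 cells were low and the call was lost without GFP replicate 1, GFP replicate 3, MAFG replicate 1 or MAFG replicate 3 (adjusted p from 0.0610 to 0.127). EPHB3 rose in both, by 0.92 on the log2 scale in WM164 cells (adjusted p = 5.7e-06) and by 1.51 in SKMel28 cells, from 0.533, 0.295 and 0.449 to 1.101, 1.47 and 1.16 CPM (adjusted p = 0.0175). The latter was lost without GFP replicate 2, GFP replicate 3 or MAFG replicate 2 (adjusted p from 0.0530 to 0.0701). EPHB1 rose in WM164 cells from 0.107, 0.166 and 0.276 to 0.944, 1.18 and 0.896 CPM, a log2 fold change of 2.45 (SE 0.532, adjusted p = 0.00169). There EPHB1 passed the filter through the MAFG group alone. In SKMel28 cells EPHB2 passed it through the GFP group alone and EPHB3 through the MAFG group alone. EPHB4, found at similar TPM in the 3 lines, had log2 fold changes of -0.03 in WM164 (adjusted p = 0.818) and 0.00 in SKMel28 cells (adjusted p = 0.992).

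ROBO2, a receptor of SLIT repellents, fell in WM164 and SKMel28 cells. It was at 15.2, 19.8 and 14.8 CPM in WM164 cells with GFP and at 3.29, 2.81 and 2.44 CPM with MAFG, and at 45.02, 51.2 and 48.8 and 22.4, 24.6 and 27.1 CPM in SKMel28 cells. MAFG libraries lay well below all GFP libraries in both, with log2 fold changes of -2.55 (SE 0.154, adjusted p = 5.16e-10) and -0.97 (SE 0.0842, adjusted p = 4.53e-07). In A375 cells the level was 1.98, 1.96 and 1.48 CPM with GFP and 1.59, 2.304 and 2.16 CPM with MAFG, where the groups overlapped (0.16, adjusted p = 0.997). ROBO2 is gene ENSG00000185008.17, chromosome 3 from 75906695 to 77649964, plus strand. ROBO1, the member of this family with the highest TPM, fell slightly in WM164 cells (-0.24, adjusted p = 0.00162) and rose slightly in SKMel28 cells (0.20, adjusted p = 0.0276, and 0.0605 to 0.131 without GFP replicate 1, GFP replicate 3, MAFG replicate 2 or MAFG replicate 3). ROBO3 did not pass in WM164 (0.14, adjusted p = 0.445) or SKMel28 cells (-0.53, adjusted p = 0.0505).

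Of the SLIT ligands in WM164 cells, SLIT3 fell from 16.5, 19.2 and 15.5 to 11.02, 9.05 and 10.3 CPM (log2 fold change -0.76, adjusted p = 4.92e-05), and SLIT2 was at 0.749, 0.763 and 0.513 CPM with GFP and 1.89, 1.07 and 1.85 CPM with MAFG. SLIT2 rose without overlap from levels near 1 CPM, with a log2 fold change of 1.24 (SE 0.398, adjusted p = 0.0239), and lost the call without GFP replicate 3, MAFG replicate 1 or MAFG replicate 3 (adjusted p from 0.0850 to 0.101).

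The netrins and their receptors were low, with DCC at 0.44 CPM or less and no member of this family above 5.03 CPM in any library, and 5 of 9 were not tested in WM164 cells. UNC5C, a repulsive netrin receptor, was at 0, 0.431 and 0.0395 CPM in WM164 cells with GFP and at 1.64, 2.33 and 1.88 CPM with MAFG. All MAFG libraries lay above all GFP libraries, with a log2 fold change of 3.53 (SE 0.661, adjusted p = 0.000456). UNC5C passed the filter through the MAFG group alone, so neither the separation nor the p-value stands apart from that filter. UNC5B was at 0.571, 0.7295 and 0.671 CPM with GFP and at 1.15, 2.07 and 1.51 CPM with MAFG. Its groups did not overlap either, with a log2 fold change of 1.25 (SE 0.394, adjusted p = 0.0214). The call was lost without GFP replicate 1, GFP replicate 3 or MAFG replicate 2 (adjusted p from 0.0531 to 0.127) and with all 18 libraries in one model (adjusted p = 0.247). NTN4, a laminin-related netrin, was called higher in WM164 and SKMel28 cells, and passed the filter in each through the MAFG group alone. In WM164 cells it went from 0.0357, 0.199 and 0.0395 to 0.735, 0.554 and 0.371 CPM, a log2 fold change of 2.49 (SE 0.702, adjusted p = 0.0112). In SKMel28 cells it went from 1.07, 0.344 and 0.138 to 1.03, 1.51 and 2.29 CPM, a log2 fold change of 1.60 (SE 0.5701, adjusted p = 0.0445). The groups overlapped in SKMel28 cells, where leaving out GFP replicate 2, GFP replicate 3, MAFG replicate 2 or MAFG replicate 3 ended the call (adjusted p from 0.0876 to 0.180). In WM164 cells leaving out GFP replicate 1, GFP replicate 3 or MAFG replicate 1 ended it (adjusted p from 0.0640 to 0.0665). NTN1 did not pass in any line, with log2 fold changes of 0.07, -0.51 and -0.86 (adjusted p = 0.895, 0.261 and 0.997).

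Comparing WM164 with SKMel28 cells, 48 members were tested in both and 27 changed in both, which is 71.1% of the 38 in WM164 and 84.4% of the 32 in SKMel28 cells. Of these, 9 rose in both (DPYSL3, EPHA2, EPHA3, EPHB3, NRP1, NTN4, PLXNB3, SEMA3A and SEMA3B), 9 fell in both (EPHA5, NRP2, PLXNA1, PLXNC1, ROBO2, SEMA3C, SEMA4C, SEMA4F and SEMA4G) and 9 went in opposite directions (EPHB2, PLXNA3, PLXNB1, PLXND1, ROBO1, SEMA4B, SEMA4D, SEMA6A and SEMA6B). Over all genes, 14357 were tested in both lines and 1880 changed in both, which is 13.1% of those tested in both, 37.1% of the 5065 in WM164 and 40.5% of the 4640 in SKMel28 cells. Of those 1880, 28% rose in both, 37.7% fell in both and 34.3% went in opposite directions, beside 33.3% each for the members, of which 56.2% of those tested in both changed in both. NTN4 and EPHB2 were the members called in both lines, and the matching count over all genes was not made. In SKMel28 cells NTN4 passed the filter through the MAFG group alone and EPHB2 through the GFP group alone. The small changes of PLXNA1 and PLXNB3 in SKMel28 cells (log2 fold changes -0.24 and 0.22) did not pass when a library was left out: for PLXNA1 this was GFP replicate 1, MAFG replicate 1 or MAFG replicate 3 (adjusted p from 0.0520 to 0.0835), and for PLXNB3 it was GFP replicate 1, GFP replicate 3, MAFG replicate 1 or MAFG replicate 2 (adjusted p from 0.0906 to 0.172).

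**Figure D3:**
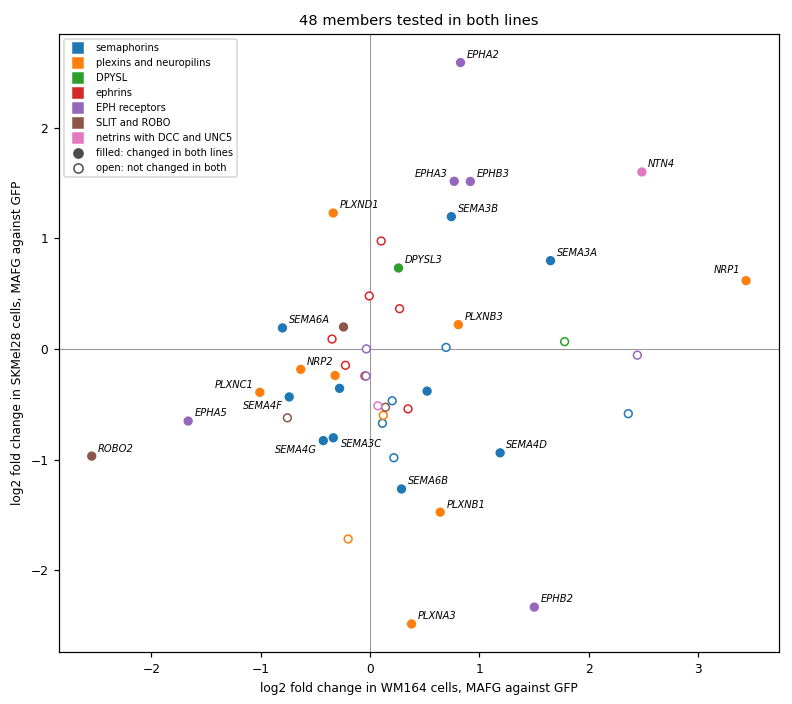
Log2 fold change of MAFG against GFP in WM164 cells (horizontal axis) and in SKMel28 cells (vertical axis) for the 48 members tested in both, coloured by family, with filled points for members changed in both lines. Of the 27 filled points, 9 lie upper right, 9 lower left and 9 in the other quadrants.

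The difference of the response between lines was tested for 63 members in one model of all 18 libraries. Between WM164 and SKMel28 cells 15 members were called (5.1% of all tested genes), between WM164 and A375 cells 13 (4.39%) and between SKMel28 and A375 cells 13 (4.2%), and these comparisons share libraries. For WM164 minus SKMel28, the log2 difference was 1.72 (SE 0.135, adjusted p = 2.26e-08) for DPYSL2, 2.12 (SE 0.2498, adjusted p = 4.66e-06) for PLXNB1 and -1.56 (SE 0.186, adjusted p = 5.11e-06) for PLXND1. ROBO2 fell further in WM164 than in SKMel28 cells, with a difference of -1.58 (SE 0.212, adjusted p = 2.46e-05). EPHA2 rose further in SKMel28 than in WM164 cells, with a difference of -1.77 (SE 0.4002, adjusted p = 0.00467).

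In cells with GFP the lines differed widely in which guidance receptors they held. Of 73 members, a mean of at least 1 TPM was reached by 37 (WM164), 34 (SKMel28) and 34 (A375), and at least 10 TPM by 9, 10 and 6. PLXND1 was the highest in WM164 cells at 51.5 ± 2.69 TPM (SD, n = 3), NRP2 in SKMel28 cells at 167 ± 9.79 and EPHA2 in A375 cells at 47.8 ± 0.985. The members with 3 counts or less in each GFP library of the line numbered 11, 14 and 8. NTN3 and SEMA5B had 3 counts or less in all 18 libraries.

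Of 63 members tested between the GFP groups, 41 were called between WM164 and SKMel28 cells (28.7% of all tested genes), 49 between WM164 and A375 cells (46.7%) and 43 between SKMel28 and A375 cells (43.8%). With at least 10 counts required in every library, 39 members were tested and the numbers were 25, 28 and 24, against 22.1%, 38.6% and 36% of all genes. EPHA3 followed the order WM164, SKMel28, A375, with log2 differences of 5.63 (adjusted p = 1.09e-18) between WM164 and SKMel28 and 2.83 (adjusted p = 4.35e-13) between SKMel28 and A375 cells. EPHA2 followed A375, WM164, SKMel28, with -6.12 (adjusted p = 1e-15) for WM164 against A375 and 1.98 (adjusted p = 2.56e-05) for WM164 against SKMel28 cells. NRP2 was higher in SKMel28 than in WM164 cells (-1.78, adjusted p = 9.39e-13 for WM164 against SKMel28) and higher in WM164 than in A375 cells (3.94, adjusted p = 5.78e-18). NRP1 was highest in A375 cells (-2.37, adjusted p = 1.52e-13 for WM164 against A375) and lower in WM164 than in SKMel28 cells (-0.44, adjusted p = 0.00482).

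DPYSL2 rose along WM164, SKMel28 and A375 cells, with -2.43 (adjusted p = 3.1e-14) for WM164 against SKMel28 and -1.29 (adjusted p = 5.86e-11) for SKMel28 against A375. PLXND1 was higher in WM164 than in SKMel28 cells (4.72, adjusted p = 4.66e-16) and PLXNC1 lower (-2.78, adjusted p = 8.42e-13). SEMA6A was far higher in WM164 than in A375 cells (8.54, adjusted p = 1.83e-19), and SEMA3B was lower in SKMel28 than in A375 cells (-3.51, adjusted p = 3.02e-14). PLXNA3 was higher in WM164 than in SKMel28 cells (4.36, adjusted p = 2.89e-14) and lower in SKMel28 than in A375 cells (-3.95, adjusted p = 3.99e-14). Several members were found in 1 line and at 3 counts or less per library in another, so that only a bound can be given against a floor of 3 counts. SEMA3F was at least 108-fold lower in SKMel28 than in A375 cells. DPYSL4 was at least 49.8-fold higher in SKMel28 than in A375 and at least 37.3-fold higher than in WM164 cells. EPHA7 was at least 20.04-fold lower in WM164 than in A375 cells, and PLXNA4 at least 23.8-fold higher in WM164 than in SKMel28 cells. SEMA3C, SEMA3F, DPYSL4, EPHA7, SLIT3, PLXNA1 and PLXNB3 were named after their values were seen.

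**Figure D4:**
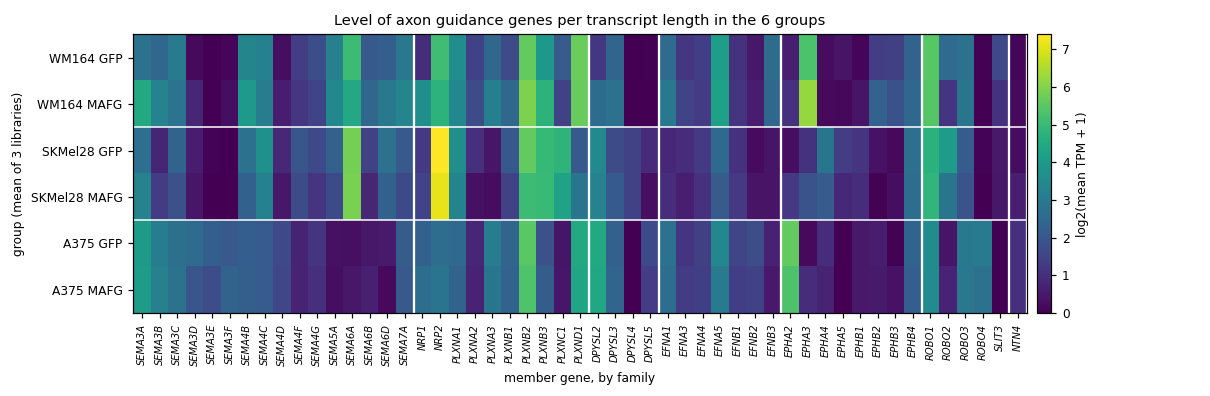
Mean level over 3 libraries as log2(TPM + 1), by colour, for each member with at least 1 TPM in a GFP group (horizontal axis, by family, families divided by white lines) in the 6 groups (vertical axis). Rows of the same line look alike next to rows of different lines, with NRP2 brightest in SKMel28, EPHA2 in A375 and EPHA3 in WM164 cells.

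Around these ligands and receptors, a list of 40 co-receptors and intracellular mediators (neogenin and its ligands, MICAL, FARP, SRGAP and VAV proteins and others) was tested for 34 (WM164), 32 (SKMel28) and 35 (A375) of its genes. Among them 9 rose and 11 fell in WM164 cells (median log2 fold change 0.00), where 16.2% of all tested genes rose and 15.6% fell. For SKMel28 cells 5 rose and 11 fell (median -0.12), beside 14.6% and 15.3% of all tested genes. Of those tested in A375 cells, 0 of 35 passed edgeR's test (median 0.04), against 0.843% of all tested genes. There 1 had an unadjusted p under 0.05, against 6.26%, and 0 passed with DESeq2, against 1.32%. Called higher in WM164 cells beside CRMP1 were NRCAM, an adhesion molecule of the L1 family that binds neuropilins, and FLRT1, a leucine-rich repeat protein. NRCAM was at 4.99 ± 0.616 CPM with GFP and 19.3 ± 1.27 CPM with MAFG (log2 fold change 1.95, adjusted p = 6.44e-10). FLRT1 was at 0.697 ± 0.178 CPM with GFP and 3.45 ± 0.677 CPM with MAFG (log2 fold change 2.29, adjusted p = 1.54e-05). PAK1, a kinase downstream of Rac, was at 30.3 ± 2.12 CPM with GFP and 15.1 ± 0.953 CPM with MAFG (log2 fold change -1.001, adjusted p = 8.77e-08). In SKMel28 cells PLXDC2, which resembles plexins in one domain, was at 15.2 ± 1.54 CPM with GFP and 0.357 ± 0.267 CPM with MAFG (log2 fold change -5.40, adjusted p = 2.64e-09). MICAL2, a relative of the oxidoreductase MICAL1 that acts below plexins, was at 8.37 ± 0.779 CPM with GFP and 2.26 ± 0.433 CPM with MAFG (log2 fold change -1.89, adjusted p = 2.22e-06).

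All 73 members had a gene in GENCODE release 44. Exons of a gene on the opposite strand overlapped those of 26 members, by more than 10% of the exon bases for 3 (EFNB2, SEMA4G and ROBO4), and exons of a gene on the same strand overlapped those of 7, among them EFNA3, EFNA4 and PLXNB3. None of the 3 was called for MAFG against GFP in any line, but SEMA4G fell in WM164 and SKMel28 cells. EFNB2 had a called response difference between SKMel28 and A375 cells.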

How the data were processed

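RNA of 3 melanoma lines was sequenced in 18 libraries, 3 for each line with GFP and with MAFG, and samples were grouped by their titles. Read counts per gene were deposited by the authors as whole numbers, made by trimming with cutadapt 1.8.1, alignment to GRCh38 with STAR 2.7.7a and counting of uniquely aligned reads with featureCounts. TPM values were deposited by the authors too, from RSEM 1.3.0 per the processing notes, rounded to 2 decimals. The labels name a library kit that does not mark strand and the methods one that does, and the strand setting and annotation release of the counting are not given in the sources used here.

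Counts were fitted with edgeR 4.0.16 in R 4.3.3 (TMM normalization, low count filter, quasi-likelihood test, Benjamini-Hochberg over all tested genes), within each line for MAFG against GFP and over 18 libraries in one model of 6 groups for differences of response and for GFP cells. Thresholds were an adjusted p of 0.05 and a log2 fold change of 1 in size. A fold against a group with 3 counts or less in each library is a bound against 3 counts per library. The test was run on simulated data with known changes first. Alternatives were DESeq2 1.42.0, its size factors in edgeR, no filter, at least 10 counts in every library, limma 3.58.1 on log2(TPM + 1) and log2(TPM + 0.1) for genes with a TPM of 1 or more in 3 libraries, other sets of libraries, and leaving out each library. Promoters came from RefSeq (GRCh38.p14) and positions from GENCODE release 44.

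The members and lists were chosen with earlier results of these data known. Genes named are the members called in a line, the 3 of the highest mean TPM in each family, the 3 of smallest adjusted p in each direction for each difference of response and pair of GFP groups, and, as said there, a few chosen after their values were seen. Replicates of a group differed by more than sampling noise, and libraries with the same replicate number in the GFP and MAFG groups of a line did not deviate together (correlations from -0.38 to 0.19), so numbers were not treated as pairs.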

Additional observations from a re-analysis of the deposited data

Results flagged for a closer look

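The response to MAFG differed between lines for the members below, by edgeR's quasi-likelihood test of the difference itself in one model of 18 libraries. The 3 comparisons share libraries, so they do not stand apart from each other.

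Between WM164 and SKMel28 cells the log2 fold change was larger in WM164 cells by 2.83 for NRP1 (adjusted p = 1.79e-10), by 1.72 for DPYSL2 (adjusted p = 2.26e-08) and by 2.12 for PLXNB1 (adjusted p = 4.66e-06). The difference, WM164 minus SKMel28, was -1.56 for PLXND1 (adjusted p = 5.11e-06), -1.58 for ROBO2 (adjusted p = 2.46e-05) and -1.77 for EPHA2 (adjusted p = 0.00467). PLXNB1 and PLXND1 moved in opposite directions in these lines, whereas ROBO2 fell and EPHA2 rose in both.

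Between WM164 and A375 cells the difference was 2.98 for NRP1 (adjusted p = 3.73e-11), 1.72 for DPYSL2 (adjusted p = 1.45e-08) and 1.41 for SEMA3A (adjusted p = 5.29e-05). It was -1.98 for EPHA3 (adjusted p = 8.62e-08), -2.70 for ROBO2 (adjusted p = 1.24e-07) and -2.06 for SEMA6A (adjusted p = 6.78e-06). For EPHA3 both lines rose, and the sign of the difference turned on log2(TPM + 1).

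Between SKMel28 and A375 cells the difference was 2.76 for EPHA2 (adjusted p = 1.89e-05), 1.24 for PLXND1 (adjusted p = 1.33e-04) and 1.26 for EFNB2 (adjusted p = 0.0447). It was -2.25 for PLXNA2 (adjusted p = 7.00e-08), -2.63 for PLXNA3 (adjusted p = 2.50e-05) and -2.25 for SEMA6B (adjusted p = 8.71e-05). EFNB2 changed in neither line alone, and its difference was lost with the replicate block (adjusted p = 0.0871).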

How the results depend on the processing

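Counts of called and changed members in WM164 and SKMel28 cells stayed within 1.5 times the reported ones with DESeq2, with its size factors in edgeR, without a filter, at 10 counts or more per library and in one model of all 18 libraries, and moved with limma on TPM. On log2(TPM + 1), log2(TPM + 0.1) and log2(TPM + 1) without a filter, 39, 39 and 70 members were tested in WM164 cells. Of these 5, 7 and 5 were called, against 3.11%, 5% and 1.33% of all genes. A change was found for 16, 16 and 15, against 15.5%, 15% and 4.89%. For SKMel28 cells 34, 34 and 68 were tested. There 1, 3 and 1 were called, against 1.8%, 3.27% and 0.79%, and 11, 10 and 5 changed, against 20.5%, 20.2% and 6.23%. Without a filter, the 5 of 68 changed in SKMel28 cells were near the share of all genes. As for A375 cells, 0, 0 and 0 of 34, 34 and 68 members were called or changed, against 0.156%, 0.124% and 0.02% of all genes. On these scales 52, 52 and 73 members were tested between lines. Response differences called were 9, 15 and 7 for WM164 minus SKMel28, against 5.11%, 7.42% and 2.22% of all genes. For WM164 minus A375 they were 8, 10 and 7, against 2.93%, 4.17% and 1.26%. For SKMel28 minus A375 they were 2, 4 and 1, against 1.72%, 2.97% and 0.711%. The GFP differences called were 17, 26 and 17 for WM164 against SKMel28, beside 25.3%, 36.5% and 11.8% of all genes. For WM164 against A375 they were 28, 37 and 28, beside 38.7%, 50.3% and 18.1%. For SKMel28 against A375 they were 27, 36 and 27, beside 32.3%, 41.8% and 15.2%. In A375 cells DESeq2 gave 2 called and 2 changed, against 0.921% and 1.32% of all genes. Without a filter it was also 2 and 2, against 0.86% and 1.31%. With all 18 libraries in one model it was 3 and 8, against 1.66% and 2.7%. At 10 counts or more in every library, the GFP differences were 25, 28 and 24, against 22.1%, 38.6% and 36% of all genes. The cause was not tested. The median of all tested genes on log2(TPM + 1) was 0.14 (WM164), -0.14 (SKMel28) and -0.10 (A375), so log2 TPM changes are relative to these shifts.

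With 1 library left out, called members ranged from 13 to 15 (WM164), 9 to 13 (SKMel28) and 1 to 2 (A375), and changed members from 34 to 38, 25 to 29 and 1 to 4, the A375 extremes being without MAFG replicate 1 (2 and 4). Response differences ranged from 13 to 15, 11 to 15 and 10 to 14, and GFP differences from 39 to 43, 48 to 49 and 42 to 44. Shares over all genes were not computed with a library left out. A shift of the members is thus not told from one of all genes.

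The direction turned on log2(TPM + 1), log2(TPM + 0.1) and log2(TPM + 1) without a filter for EFNA5 in WM164 (0.15, 0.16 and 0.15), DPYSL2 in SKMel28 (-0.19, -0.21 and -0.19), DPYSL2 in A375 (-0.0656, -0.0681 and -0.0656) and SEMA3A in A375 cells (-0.0073, -0.0111 and -0.0073), and for the NRP1 response difference SKMel28 minus A375 (-0.15, -0.10 and -0.15). On log2(TPM + 1) with or without a filter it turned for PLXNA3 in A375 cells (-0.0215) and the EPHA3 response differences (0.15 WM164 minus SKMel28, 0.21 WM164 minus A375, 0.0582 SKMel28 minus A375), and without a filter for PLXNA2 in A375 cells (-0.0687). It also turned for EFNA5 without WM164 GFP replicate 2 (0.0071), DPYSL2 without A375 MAFG replicate 1 (-0.0494, in a range up to 0.1114), and PLXND1 in A375 cells without GFP replicate 3 (0.0787), MAFG replicate 2 (0.023) or MAFG replicate 3 (0.0642), in a range from -0.1783. Of these only the EPHA3 response differences had been called or changed as reported.

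With the replicate block, 16 were called and 39 changed in WM164 cells, against 6.63% and 31.7% of all genes. In SKMel28 cells it was 12 and 32, against 4.61% and 30.1%, and in A375 cells 1 and 1, against 0.406% for each. Response differences were 14, 15 and 10, against 4.54%, 3.88% and 3.61%. GFP differences were 42, 49 and 44, against 28.2%, 46.2% and 43.4%. The block ended the call of NTN4 in SKMel28 cells (adjusted p = 0.0515) and of the EFNB2 response difference (adjusted p = 0.0871). Members near 1 CPM rest on few counts, and their log2 changes are the least precise.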
